A study of Mus musculus with 8 samples.

Results

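The genes described here belong to the integrated stress response, with Chac1 at their head. They are 10 of the 19321 genes that the platform annotation names on the array: Chac1, Atf4, Atf5, Ddit3, Trib3, Asns, Sesn2, Slc7a11, Psat1 and Phgdh. A probe was taken for a gene if its symbol in the annotation matched, and where a gene had several probes the one with the highest mean spot intensity over all 8 arrays was kept. This choice touched Slc7a11 alone, whose kept probe had a mean spot intensity of 69.6 and whose other probe had 67.2. Chac1 was selected on its measured difference between the groups in these same arrays. Its difference is therefore given as a description and is not used as evidence for the set. The other 9 genes are known members of the pathway, but the set was drawn up with earlier results of these arrays known, so its counts against all probes are descriptions too.

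The tissue was dorsal hippocampus, dentate gyrus, from male C57BL/6J mice aged 8 to 12 weeks. The groups were wild type (WT) and a knockout of Cav3.1, a low-voltage-activated calcium channel (Cav3.1 KO), with 4 arrays each, and the labels name no other allele, agent or treatment. The sources used here do not say how or in which cells the channel gene was inactivated. Cy5-labelled RNA was hybridised alone on each array. No label ties an array to its own animal, so p-values reflect only the spread between these 8 samples, part of which may be technical.

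In the integrated stress response, kinases that sense amino acid shortage, misfolded protein, viral RNA or haem shortage phosphorylate the translation factor eIF2 alpha. General translation then slows, while the mRNA of the transcription factor Atf4 is translated more. Atf4 pairs with C/EBP-type partners on composite response elements and activates genes for amino acid synthesis and uptake, for redox balance and for feedback on the pathway itself. Because much of the control of Atf4 lies in translation, the level of its mRNA, which is all that an array reports, is not a measure of its protein.

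The proximal promoters of the set are shown because they hold, or lack, the element through which Atf4 is known to act. The core TGATGNAA (N is any base, both strands searched, 1 motif only) was looked up in RefSeq windows of GRCm38.p6, each running from 250 bases before a start site to 50 bases after it. All 10 genes matched a window. The core was present in 4 of the 10, Chac1, Asns, Slc7a11 and Trib3, and in 3.97% of all 32851 windows, or 4.51% of 27025 genes. In the following stretches, written 5′ to 3′ on the gene's strand, capitals mark the core, which reads TTNCATCA where it lies on the opposite strand. They are the 250 bases before the Chac1 start (chr2:119350992-119351241, plus strand), and short stretches around the core of Asns (chr6:7693214-7693243, minus strand), of Slc7a11, which has 2 cores (chr3:50443648-50443684, minus strand), and of Trib3 (chr2:152344028-152344057, minus strand).
Chac1: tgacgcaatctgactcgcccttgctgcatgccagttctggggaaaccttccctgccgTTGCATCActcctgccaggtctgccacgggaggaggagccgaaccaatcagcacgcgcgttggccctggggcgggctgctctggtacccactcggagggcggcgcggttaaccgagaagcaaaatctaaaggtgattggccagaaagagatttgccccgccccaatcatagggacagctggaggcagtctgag
Asns: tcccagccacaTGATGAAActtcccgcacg
Slc7a11: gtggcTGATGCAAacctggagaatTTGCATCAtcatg
Trib3: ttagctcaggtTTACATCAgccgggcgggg
The core begins at position -193 from the start site in Chac1 and at -23 in Asns. In Slc7a11 the cores begin at -66 and -47, and in Trib3 the core begins at 15, just inside the transcript. The start site used for Slc7a11 lies within the annotated span of that gene, so it is not its outermost start. In the windows of Atf4, Atf5, Ddit3, Sesn2, Psat1 and Phgdh these letters were not found, which says nothing of elements elsewhere.

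Mean blank spots lay between 53.0 and 63.4, and 85.4% to 93.0% of probes were above the 95th percentile of their array's blanks. Any 2 arrays correlated across tested probes with r between 0.991 and 0.997. The arrays divide in 2 technical ways. WT replicate 3 and Cav3.1 KO replicate 4 have chip serial numbers apart from those of the other 6. What else, if anything, sets this pair apart is not stated. The scanner headers also give a straight-line fit between gains, whose slope from the first to the third gain was 0.244 to 0.247 on WT replicates 1, 2 and 4 and Cav3.1 KO replicate 1. It was 0.235 or 0.236 on WT replicate 3 and Cav3.1 KO replicates 2, 3 and 4. The steeper class thus holds 3 WT arrays and 1 Cav3.1 KO array, and the shallower class the reverse, so the gain slope is partly aligned with genotype. Mean blanks divided the same way, at 53.0 to 56.2 in the steeper class and 59.7 to 63.4 in the shallower one. Values with the gain slope class in the model stand beside the results that follow. Values are normalised log2 intensities, where 1 unit is a doubling, and a negative difference means a lower value in Cav3.1 KO. An offset added in the background correction makes the differences of dim probes smaller than they are after plain subtraction of the blank level without an offset.

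Chac1 encodes a glutathione-degrading gamma-glutamylcyclotransferase and is a well-known late target of Atf4 and Ddit3. Its values were 7.44, 7.66, 7.66 and 7.59 on WT replicates 1 to 4 and 7.23, 7.27, 7.12 and 7.22 on Cav3.1 KO replicates 1 to 4. The groups did not overlap, WT replicate 1 being the lowest WT array and Cav3.1 KO replicate 2 the highest of its group. The means were 7.59 ± 0.102 (SD, n = 4) and 7.21 ± 0.0661 (SD, n = 4), a difference of -0.38 (SE 0.0561), so that Cav3.1 KO stood at 77.0% of WT. The spots were 3.06 times as bright as the mean blank, and the difference was -0.55 after plain subtraction of the blank level and -0.61 in the deposited value table. In that table the median difference over all probes tested was itself -0.066, against -0.0008 in the main analysis. Every difference quoted from it includes this general shift. Within the steeper gain class the 1 Cav3.1 KO array lay -0.33 from the mean of its 3 WT arrays, and within the shallower class the 3 Cav3.1 KO arrays lay -0.45 from the 1 WT array. The difference was -0.36 among the 6 arrays whose serial numbers lie together and -0.43 between the other 2 arrays. With the gain class as a block it was -0.39 (SE 0.0678).

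**Figure D1:**
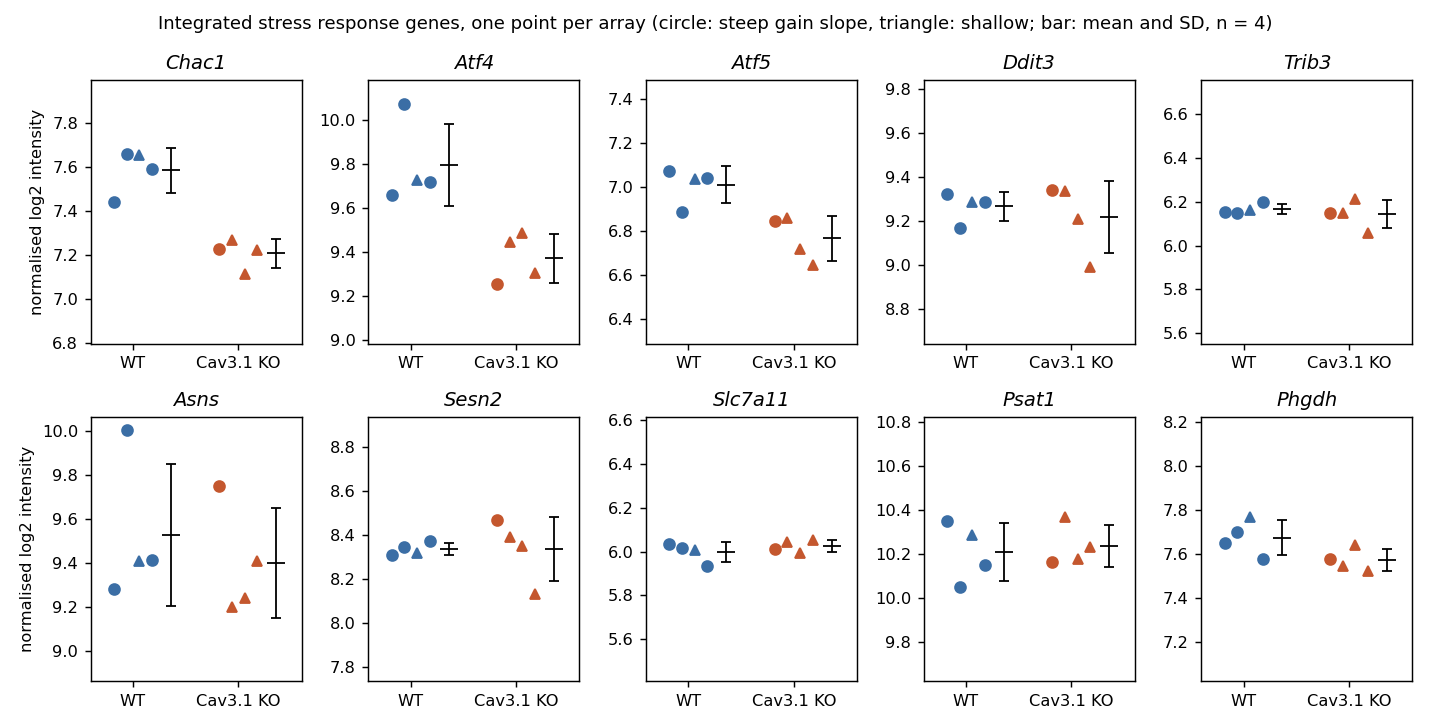
Normalised log2 intensity of the 10 genes on each of the 8 arrays, with WT in blue and Cav3.1 KO in orange, circles for the steeper and triangles for the shallower gain slope class, and bars for the mean and SD of 4 arrays; every panel spans 1.2 log2 units. The groups stand apart for Chac1, Atf4 and Atf5 and overlap for the other 7 genes.

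Of the transcription factors, Atf4 and Atf5 were lower on every Cav3.1 KO array than on any WT array, but neither passed the test over all probes, and Ddit3 overlapped between the groups. Atf4, the central factor of the response, gave 9.66, 10.08, 9.73 and 9.72 on WT replicates 1 to 4. On Cav3.1 KO replicates 1 to 4 it gave 9.25, 9.45, 9.49 and 9.30. WT replicate 2 stood above the other WT arrays, and without it the difference was -0.33 with a limma adjusted p of 0.106. Over all arrays the means were 9.80 ± 0.188 and 9.37 ± 0.112 (SD, n = 4), a difference of -0.42 (SE 0.0962, 95% interval -0.65 to -0.20), with a limma adjusted p of 0.190. The exact two-sided permutation p was 0.0286, the smallest that 4 against 4 allows. With the gain class as a block the difference was -0.44 (SE 0.118, limma adjusted p 0.295). It was -0.57 within the steeper class and -0.32 within the shallower one. The spots of Atf4 were 13.8 times as bright as the blanks, so the offset mattered little, and plain subtraction gave -0.46.

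Atf5, a related factor that also responds to mitochondrial stress, gave 7.07, 6.89, 7.04 and 7.04 on WT replicates 1 to 4 and 6.84, 6.86, 6.72 and 6.65 on Cav3.1 KO replicates 1 to 4. The groups came close, with WT replicate 2 next to Cav3.1 KO replicate 2, but did not overlap. The means were 7.01 ± 0.0840 and 6.77 ± 0.101 (SD, n = 4), a difference of -0.24 (SE 0.0601, 95% interval -0.38 to -0.10), with a limma adjusted p of 0.235. The exact permutation p was again 0.0286. The probe was at 2.15 times the blanks, and the difference was -0.44 with plain subtraction of the blank level (limma adjusted p 0.377) and -0.51 in the deposited value table (limma adjusted p 0.36), where Atf4 had -0.46 and -0.53. With the gain class as a block the difference was -0.23 (SE 0.0729, limma adjusted p 0.377). The platform annotation pairs this probe with a non-coding transcript of Atf5, and whether it also reports the coding mRNA was not tested. The order of the arrays was not that of Atf4: WT replicate 2, the highest for Atf4, was the lowest WT array for Atf5.

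Ddit3 encodes CHOP, the partner of Atf4 in prolonged stress. It gave 9.32, 9.17, 9.29 and 9.29 on WT replicates 1 to 4 and 9.34, 9.34, 9.21 and 8.99 on Cav3.1 KO replicates 1 to 4. Cav3.1 KO replicates 1 and 2 were above every WT array and replicate 4 below all of them. The difference was -0.05 (SE 0.0788, 95% interval -0.23 to 0.13, limma adjusted p 0.980), and among the 6 arrays whose serial numbers lie together it was 0.04. The probe was bright, at 10.6 times the blanks. Its interval did not reach the -0.42 of Atf4 but overlapped the interval of that difference, -0.65 to -0.20.

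Among the targets with an enzyme or transport role, Asns, Psat1, Phgdh and Slc7a11 overlapped between the groups. Asns makes asparagine and is a classic target of Atf4. It gave 9.28, 10.01, 9.41 and 9.42 on WT replicates 1 to 4 and 9.75, 9.20, 9.24 and 9.41 on Cav3.1 KO replicates 1 to 4. It varied more between arrays of 1 group than the other genes of the set, with an SD of 0.324 in WT and of 0.25 in the knockout. WT replicate 2 was the highest array, as for Atf4, but Cav3.1 KO replicate 1, the lowest for Atf4, was the second highest for Asns. The difference was -0.13 (SE 0.177, 95% interval -0.54 to 0.28, limma adjusted p 0.974), and 0.03 with the gain class as a block. This interval is wide enough to hold a difference as large as that of Atf4.

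Phgdh and Psat1 are the first and second enzymes of serine synthesis from glycolysis, which in brain is carried out mainly by astrocytes. Phgdh gave 7.65, 7.70, 7.77 and 7.58 in WT and 7.58, 7.55, 7.64 and 7.53 in Cav3.1 KO, so that the difference was -0.10 (SE 0.0453, 95% interval -0.21 to 0.0007, limma adjusted p 0.620). The overlap came from WT replicate 4 and Cav3.1 KO replicate 3. With the gain class as a block the difference was -0.13 (95% interval -0.25 to -0.013, limma adjusted p 0.453). Psat1 gave 10.35, 10.05, 10.29 and 10.15 in WT and 10.16, 10.37, 10.18 and 10.23 in Cav3.1 KO, so that the difference was 0.03 (SE 0.0731, 95% interval -0.14 to 0.19, limma adjusted p 0.993). The direction of Psat1 turned to -0.06 with median scaling of the arrays and to -0.07 in the deposited value table. In the latter, the median over all probes was -0.066, so the Psat1 value was close to the general shift of that table. The mean of 11 astrocyte markers lay between 9.26 and 9.35 on the WT arrays and between 9.30 and 9.42 on the knockout arrays. Of the 11 genes 9 were higher and 2 lower, beside 50.7% of all probes below 0. Their median difference was 0.01, and the largest was that of Gjb6, at 0.38. The part of these markers in either gene was not tested.

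Slc7a11 encodes the cystine-glutamate exchanger xCT, which supplies cystine for glutathione. Its kept probe was barely brighter than the blanks, at 1.21 times their mean, and lay between 5.93 and 6.03 on WT arrays and between 5.99 and 6.05 on knockout arrays. The difference was 0.03 (SE 0.0303, 95% interval -0.04 to 0.097, limma adjusted p 0.962). Plain subtraction gave 0.16 (SE 0.146) and the deposited values gave 0.099 (SE 0.15). The other probe of the gene gave -0.02 (SE 0.0342). So near the blanks, the probes could show only a large change.

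Trib3 and Sesn2 act as brakes. Trib3 is a pseudokinase that restrains Atf4 and Ddit3, and Sesn2 is a leucine sensor that holds back mTORC1. Trib3 was also dim, at 1.32 times the blanks, and lay between 6.15 and 6.20 on WT arrays and between 6.06 and 6.21 on knockout arrays, with a difference of -0.02 (SE 0.0353, limma adjusted p 0.976). For Trib3 plain subtraction gave -0.10 (SE 0.133) and the deposited values gave -0.15 (SE 0.164). Sesn2 gave 8.31, 8.34, 8.32 and 8.37 in WT and 8.47, 8.39, 8.35 and 8.13 in Cav3.1 KO. Cav3.1 KO replicate 4 was below every WT array and replicates 1 and 2 above them, so that the means of 8.34 ± 0.0292 and 8.34 ± 0.144 (SD, n = 4) differed by less than the spread. The 95% interval of the Sesn2 difference ran from -0.15 to 0.15, with a limma adjusted p of 0.9999.

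**Figure D2:**
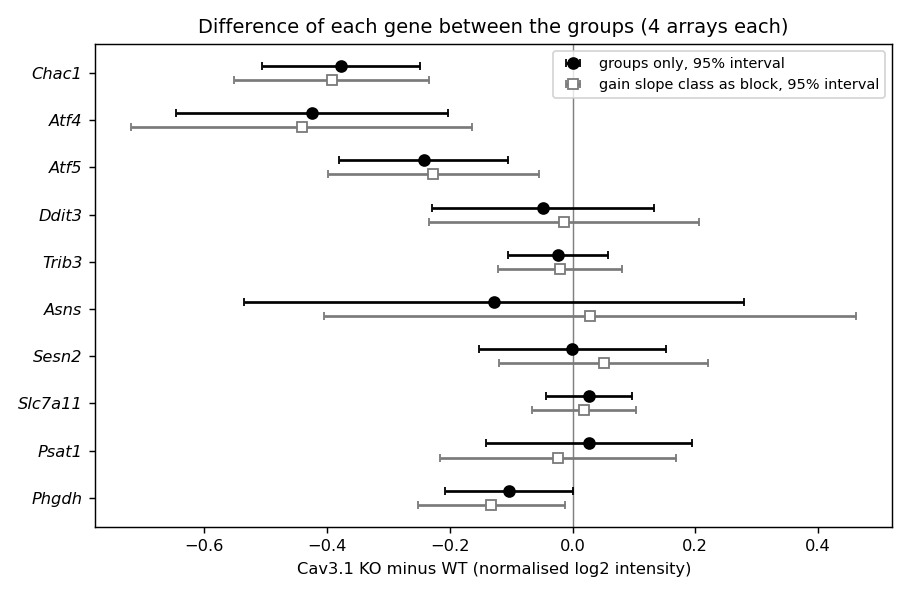
Cav3.1 KO minus WT in normalised log2 intensity for each of the 10 genes (4 arrays a group), as black circles with 95% intervals from the fit on groups and as open squares with 95% intervals from the fit with the gain slope class as a block. Chac1, Atf4 and Atf5 lie left of 0 in both fits, at -0.38, -0.42 and -0.24 in the first, and the intervals of the other 7 genes reach or cross 0 in both fits, except that of Phgdh with the block (-0.25 to -0.013).

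Across the set, all 10 probes were detected on all 8 arrays and were tested. Of the 10, 1 passed the limma threshold of 0.05 on the adjusted p over all probes, and this was Chac1, the gene chosen for that difference; of all 21150 probes 0.288% passed (0.0898% lower and 0.199% higher in Cav3.1 KO), and nothing is read from this count. Chac1 passed in 3 of 19 alternative analyses. Of the other 9 genes 0 passed by limma, while 2, Atf4 and Atf5, had an unadjusted p under 0.05, against 8.10% of all probes. Those 2 of 9 also had groups that did not overlap, as had 4.95% of all probes; Cav3.1 KO was the lower group for both (2.53% of all probes) and the higher group for 0 of 9 (2.42%). The difference was below 0 for 7 of the 9, against 50.7% of all probes. Sesn2, 1 of the 7, differed by -8.7e-05, and only Atf4, Atf5 and Phgdh stayed below 0 in all 19 alternatives. The median difference of the 9 genes was -0.05, beside -0.0008 over all probes. On the normalised scale the 95% intervals of Ddit3, Sesn2, Psat1 and Phgdh did not reach the -0.42 of Atf4, while that of Asns did. Atf4 has its own interval, -0.65 to -0.20, which overlapped those of Ddit3 (-0.23 to 0.13) and Phgdh (-0.21 to 0.0007). The dim Trib3 and Slc7a11 probes, whose scale is compressed, were not set against Atf4. The differences between genes were not themselves tested. Among the genes with the Atf4 core before or just after the start, Chac1 differed by -0.38, Asns by -0.13, Trib3 by -0.02 and Slc7a11 by 0.03.

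Whether Atf4 and its targets moved together was also examined from array to array. Chac1, Atf4 and Atf5 separate the groups, so they were left out of the pooled correlation test. That test therefore cannot show whether Atf4 moved with its targets. The other 7 genes, among them the dim Trib3 and Slc7a11, form 21 pairs. Of these pairs 10 correlated positively over the 8 arrays, with a median r of -0.07. After Benjamini-Hochberg adjustment 0 of the 21 passed an exact permutation test over all pairings, and 2 had an unadjusted p under 0.05. Ddit3 with Sesn2 gave a Pearson r of 0.839 (permutation p 0.0219, adjusted 0.230) and a Spearman rho of 0.690 (permutation p 0.0694, adjusted 0.486). Without the 2 arrays farthest from the median of Ddit3 the r was 0.421, and among the 6 arrays whose serial numbers lie together 0.466, so the relation rested in part on those arrays. Asns with Psat1 gave -0.775 (permutation p 0.0188, adjusted 0.230) and a rho of -0.833 (permutation p 0.0154, adjusted 0.161), with -0.482 without the 2 farthest arrays and -0.779 among those 6 arrays. The second pair ran in opposite directions, Asns being high and Psat1 low on WT replicate 2. In the deposited value table, on its own scale, 19 of the 21 pairs were positive with a median r of 0.24, and 0 passed by the permutation test, 2 having an unadjusted p under 0.05.

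With each group centred on its own mean, all 10 genes could be set against each other, in 45 pairs, and 0 passed after adjustment by exact permutation within groups, with 3 under an unadjusted p of 0.05. Atf5 and Ddit3 gave the highest Pearson r of the 45, 0.927 (permutation p 0.0052, adjusted 0.117), with a Spearman rho of 0.952 (permutation p 0.0069, adjusted 0.312), 0.888 without the 2 arrays farthest from the median of Atf5 and 0.962 among the 6 arrays whose serial numbers lie together. Trib3 and Slc7a11, both dim, gave -0.687 (permutation p 0.0052, adjusted 0.117), with a rho of -0.810 (permutation p 0.021, adjusted 0.312) and -0.906 without 2 arrays. Asns and Psat1 gave -0.773 (permutation p 0.042, adjusted 0.625), with a rho of -0.881 (permutation p 0.017, adjusted 0.312) and -0.576 without 2 arrays. Atf4 and Chac1 gave a Pearson r of 0.318 (permutation p 0.516, adjusted 0.944) and a Spearman rho of 0.548 (permutation p 0.25, adjusted 0.865). Without the 2 arrays farthest from the median of Chac1 the r was 0.672. Atf4 and Asns gave 0.401 (permutation p 0.396, adjusted 0.944) and a rho of 0.214 (permutation p 0.684, adjusted 0.993), turning to -0.351 without the 2 arrays farthest from the median of Atf4. Atf4 and Ddit3 gave -0.254 (permutation p 0.486, adjusted 0.944) and a rho of -0.524 (permutation p 0.188, adjusted 0.838). With 8 arrays such relations could be seen only if they were strong.

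The genes whose pattern over the 8 arrays was most like that of Chac1, among 17524 probes with an established symbol, were Cdk9 (r = 0.984), Scarb1 (0.972), Serinc2 (0.958), Lrrc20 (0.956) and Cars (0.955). Cars, which encodes the cysteinyl-tRNA synthetase, is itself a textbook target of Atf4. Atf4 stood at rank 164 with an r of 0.848, Phgdh at 1065 and Atf5 at 475, while Ddit3 stood at 6242 and Psat1 at 12046. The 5 most like Atf4 were Dhrs1 (the highest), Daglb (r = 0.969), Ddx39a (0.969), Smc2 (0.964) and Ncl (0.963). These likenesses are a description, and they include the shared difference between the groups as well as what the arrays share in brightness and tissue content. Chac1 and Atf4 both separate the groups, which alone raises their r of 0.848. With each group centred on its own mean, their r was 0.318.

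Beyond the set, 9 lists of related genes held 147 genes, of which 133 were tested and 0 passed over all genes by limma. Of the 133, 22 had an unadjusted p under 0.05 (16.5%, against 8.10% of all probes). The groups stood apart for 8 with Cav3.1 KO lower (6.02%, against 2.53%) and for 3 with Cav3.1 KO higher (2.26%, against 2.42%). The lowest limma adjusted p of the 133 was 0.0984 in the fit without a block. The difference was below 0 for 84 of the 133, beside 50.7% of all probes, and this share applies to the counts of lower genes below. The lists were chosen with earlier results in view and overlap in a few genes.

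The bZIP partners and related factors of Atf4 were spread in both directions, with 5 of 9 tested genes lower and 4 higher and a median of -0.02. Cebpb, a C/EBP partner with which Atf4 binds its elements, was 8.64 ± 0.0638 in WT and 8.35 ± 0.0945 in Cav3.1 KO (SD, n = 4), a difference of -0.29 (SE 0.0530, limma adjusted p 0.0984). Nupr1, a stress-induced chromatin protein, differed by -0.32 (SE 0.0672, limma adjusted p 0.161). Atf3, which Atf4 induces and which also follows many other stimuli, went the other way, from 5.82 ± 0.0342 to 6.04 ± 0.0941 (SD, n = 4), a difference of 0.22 (SE 0.0476, limma adjusted p 0.162). Its probe was dim and was detected on 7 arrays. With the gain class as a block Cebpb, Nupr1 and Atf3 differed by -0.35, -0.34 and 0.28 (limma adjusted p 0.062, 0.236 and 0.091). The groups did not overlap for these 3 genes or for Batf3 (-0.08), the latter named after its values were seen.

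Other stress and metabolic targets of Atf4 numbered 21 tested, 14 lower and 7 higher, with a median of -0.02 and 0 groups that stood apart. The largest difference was that of Ddit4, a repressor of mTORC1 that glucocorticoids also induce, at 0.68 (SE 0.239, limma adjusted p 0.459). It was 7.66 ± 0.483 in WT and 8.34 ± 0.275 in Cav3.1 KO (SD, n = 4), with WT replicate 3 (8.15) above Cav3.1 KO replicate 2 (8.05). With the gain class as a block its difference was 0.47 (limma adjusted p 0.605). Ddr2 and Sqstm1, which with Ddit4 had the 3 smallest p-values of the list, differed by -0.14 (SE 0.0474) and -0.19 (SE 0.0738), with limma adjusted p-values of 0.427 and 0.554.

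The upstream kinases, phosphatase subunits and regulators of eIF2 alpha had a median of -0.0045 over 11 tested genes, 6 lower and 5 higher. Nck1, an adaptor that recruits phosphatase to eIF2, differed by -0.16 (SE 0.0637, limma adjusted p 0.581), and Impact, an inhibitor of the amino acid sensing kinase, by 0.28 (SE 0.130, limma adjusted p 0.658). Ppp1r15b, the constitutive eIF2 alpha phosphatase subunit, differed by 0.09 (SE 0.0542, limma adjusted p 0.787).

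Of the enzymes of amino acid and one-carbon metabolism, 13 of 20 were lower, with a median of -0.02. Psph, the last enzyme of serine synthesis after Phgdh and Psat1, was 8.63 ± 0.0865 in WT and 8.44 ± 0.0753 in Cav3.1 KO (SD, n = 4), with groups that did not overlap and a difference of -0.20 (SE 0.0533, limma adjusted p 0.281). The serine pathway thus gave -0.10, 0.03 and -0.20 at its 3 steps. Mthfd2l differed by 0.09 (SE 0.0311) and Gldc, of glycine cleavage, by -0.24 (SE 0.0929), with limma adjusted p-values of 0.410 and 0.530.

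Of the aminoacyl-tRNA synthetases, 9 of 19 were lower and 10 higher, with a median of 0.01. Cars gave 7.62, 7.80, 7.74 and 7.65 in WT and 7.40, 7.52, 7.37 and 7.51 in Cav3.1 KO. The groups did not overlap, and the difference was -0.25 (SE 0.0537, limma adjusted p 0.162). Vars (-0.07, SE 0.0265) was the other synthetase whose groups did not overlap, and Sars differed by -0.11 (SE 0.0633), with limma adjusted p-values of 0.492 and 0.801. Among amino acid transporters, 8 of 15 were lower, with a median of -0.008. Slc6a9, the glycine transporter GlyT1, had groups apart in the other direction, at 0.30 (SE 0.116, limma adjusted p 0.540), and Slc1a1 and Slc7a10 differed by -0.14 (SE 0.0799) and 0.13 (SE 0.0887), with limma adjusted p-values of 0.781 and 0.842.

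In glutathione metabolism, where Chac1 acts, 13 of 17 genes were lower, with a median of -0.04. Gclc, the catalytic subunit that starts glutathione synthesis, differed by -0.31 (SE 0.115, limma adjusted p 0.512), from 8.33 ± 0.132 in WT to 8.02 ± 0.228 in Cav3.1 KO (SD, n = 4), with overlap. Nfe2l2 and Lap3 differed by -0.11 (SE 0.0636) and -0.08 (SE 0.0516), with limma adjusted p-values of 0.805 and 0.816. Chac2, the constitutive relative of Chac1, added after its values were seen, gave 7.60, 7.60, 7.62 and 7.64 in WT and 7.51, 7.65, 7.59 and 7.54 in Cav3.1 KO. Its difference of -0.04 (SE 0.0354, 95% interval -0.12 to 0.04, limma adjusted p 0.915) did not pass. The 7 relatives of the set, Chac2 included, had a median of 0.06, and Trib1 gave 0.15 (SE 0.0362, limma adjusted p 0.217), the groups standing apart with Cav3.1 KO higher, while its relative Trib3 gave -0.02. Sesn1, the relative of Sesn2, gave 0.11 with overlap (limma adjusted p 0.837).

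The neighbouring arms of the unfolded protein response, driven by Atf6 and Xbp1, had the lowest median of the lists, at -0.11, with 17 of 21 tested genes lower, beside 50.7% of all probes. None passed by limma. The list means overlapped between the groups, at 8.31 to 8.47 on WT arrays and 8.16 to 8.39 on knockout arrays. Sdf2l1, a component of the chaperone complex of the endoplasmic reticulum, gave 7.94, 8.18, 8.11 and 7.97 in WT and 7.59, 7.87, 7.50 and 7.36 in Cav3.1 KO. The groups did not overlap, and the difference was -0.47 (SE 0.106, limma adjusted p 0.190). Atf6 itself, also without overlap, differed by -0.13 (SE 0.0311, limma adjusted p 0.206), and Pdia6, a protein disulphide isomerase, by -0.38 (SE 0.113, limma adjusted p 0.351).

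**Figure D3:**
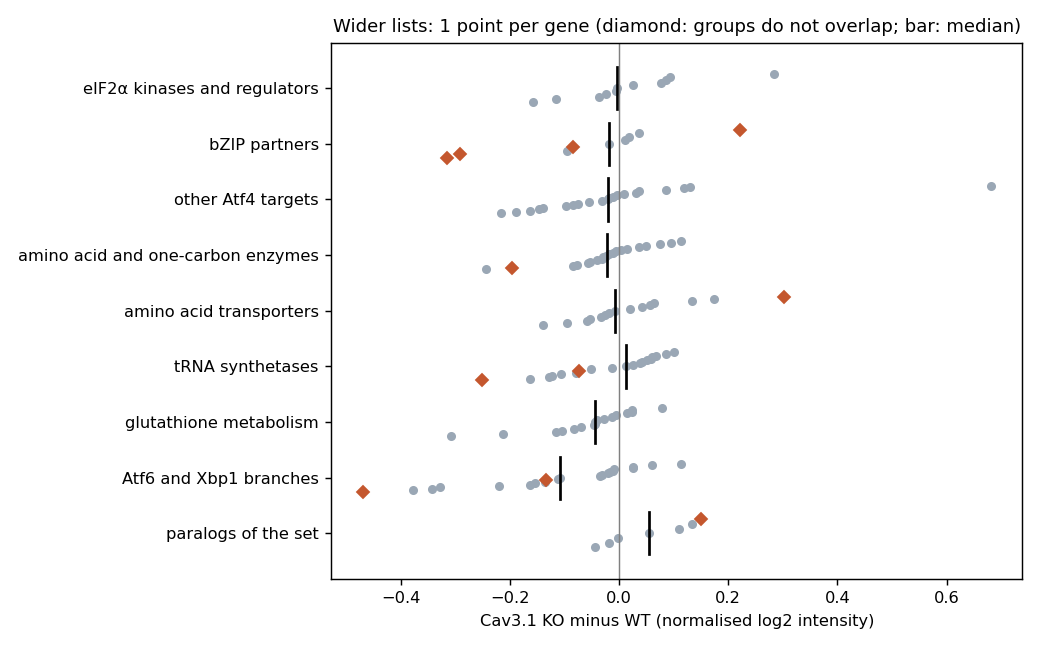
Cav3.1 KO minus WT in normalised log2 intensity for the tested genes of 9 related lists, 1 point per gene, with diamonds where the groups do not overlap, circles where they do and a bar at each list's median. The medians lie between -0.11 for the Atf6 and Xbp1 branches and 0.06 for the paralogs, and Ddit4 at 0.68 and Sdf2l1 at -0.47 are the outermost points.

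Cell type markers were read as a description of the samples. With 85.4% to 93.0% of all probes above the blank cut on each array, detection alone does not show which tissue was taken. All 10 markers of mature granule neurons were detected and tested, and their mean lay between 7.32 and 7.47 on WT arrays and between 7.20 and 7.38 on knockout arrays, with 7 of 10 genes lower. Of 8 markers of immature granule neurons and progenitors, 7 were detected and tested, and the other, Draxin, was detected on 0 arrays. Of 11 marker lists, 1 had means that did not overlap, that of CA1 and CA3 pyramidal neurons, at 7.44 to 7.57 on WT arrays and 7.32 to 7.44 on knockout arrays, with 7 of 10 genes lower. Of the 10, Bok passed the test (-0.65, limma adjusted p 0.0065), and without it the mean of the other 9 genes lay between 7.23 and 7.39 on WT arrays and between 7.17 and 7.33 on knockout arrays, and the groups overlapped. In other lists, the granule neuron marker C1ql2 (-0.57, limma adjusted p 0.0065) and the endothelial marker Cldn5 (-0.79, limma adjusted p 0.018) passed as lower. The astrocyte marker Gjb6 passed as higher (0.38, limma adjusted p 0.027). With the gain class as a block Bok, C1ql2 and Cldn5 still passed (limma adjusted p 0.038, 0.018 and 0.021), and Gjb6 did not (0.110). All 9 microglial markers tested were lower, with list means of 7.74 to 7.92 and 7.70 to 7.82. Thalamus and habenula markers were higher for 8 of 9 genes, with list means of 6.78 to 7.33 on WT arrays and 6.95 to 7.82 on knockout arrays, and Cav3.1 KO replicates 2 and 3 were the highest. Without those 2 arrays Chac1, Atf4 and Atf5 differed by -0.36, -0.52 and -0.26, the limma adjusted p of Atf4 and Atf5 being 0.286 and 0.374. Choroid plexus and ependyma markers ran from 7.35 to 8.59 and from 6.42 to 8.60. Between bulk samples, fewer cells of a type and less RNA per cell cannot be told apart, and the part of the marker lists in the values of the set was not tested.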

How the data were processed

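RNA was measured on 8 chips of 1 colour. Per the file headers, the deposited scanner files give the median intensity of each spot before any normalisation. The sources used here do not say how 3 scan gains were merged into it. The authors' deposited value table, an alternative here, holds a linear intensity with a median of 25 on each array. Against the scanner values it is a straight line that meets 0 close to the mean blank spot.

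A second scanner intensity under a background heading followed the spot itself (r of 0.994 to 0.996) and was not used. Spot intensities were corrected with normexp (offset 50), and log2 values of 23473 probes were quantile normalised. A probe above the 95th percentile of blanks on at least 4 arrays was tested. Left out were 2239 dim probes and 84 with a spot marked not good, leaving 21150. The comparison of groups used limma (version 3.58.1, R 4.3.3; Benjamini-Hochberg over all probes, threshold 0.05). Single values and correlations were tested by exact two-sided permutation. The fit was tested on simulated data. The number of arrays limits precision.

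Alternatives were background, offset, scaling, value table, filters, blocks and arrays left out. The members, lists and naming rule were chosen with earlier results of these data known. The rule named the 10 genes, up to 3 genes with the smallest p of each list, and 5 genes most like Chac1 or Atf4; Batf3 and Chac2 were added after their values were seen. The gain slope class, the pair of arrays with high thalamus markers and the CA marker mean without Bok were added after the data were seen.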

Additional observations from a re-analysis of the deposited data

Results flagged for a closer look

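In WT, replicate 2 lay far above the other arrays for Atf4, at 10.08 against 9.66 to 9.73, a gap of 0.834 of the range of the group, which is above Dixon's 95% limit for 4 arrays. Of 42 groups of 4 examined over the set and the marker lists this was 1, and chance alone gives about 1 in 20. Without this array the Atf4 difference was -0.33 (SE 0.0614) in place of -0.42.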

How the results depend on the processing

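Numbers of probes called, 61 in all, were 36 with median scaling, 34 in the value table, 7 among the 6 arrays whose serial numbers lie together, 23 with the gain slope class as a block and 17 without Cav3.1 KO replicates 2 and 3, and 16 to 49 with 1 array left out. The number of the 10 genes called, 1 (Chac1), was 0 with plain blank subtraction, median scaling, the value table, no filter, the serial number group or gain class as a block, those 6 arrays alone or both Cav3.1 KO arrays left out. With 1 array left out it was 0 to 1, and only leaving out WT replicate 1 kept it. Atf4, Atf5 and Phgdh stayed below 0 in all 19 alternatives and Slc7a11 above 0 in all 20, none of them called in any. Directions turned for Psat1 with median scaling (-0.063), in the value table (-0.073), with the gain class (-0.023) and without both Cav3.1 KO arrays (-0.012). The value table had a median difference of -0.066 over all its probes. Among those 6 arrays they turned for Ddit3 (0.035), Trib3 (0.0038) and Sesn2 (0.061), with the gain class for Asns (0.029) and Sesn2 (0.051), and for Asns without both arrays (0.051). With 1 array left out the ranges were -0.24 to 0.031 for Asns, -0.044 to 0.067 for Sesn2, -0.026 to 0.073 for Psat1, -0.089 to 0.028 for Ddit3 and -0.047 to 0.0044 for Trib3. The cause was not tested. Calls in the wider lists (0 in all 15 alternatives by limma) and among correlated pairs (0 in all 5) did not change.

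The labels do not say whether arrays with the same replicate number belong together. Deviations of same-numbered arrays from their group means correlated at -0.115 to 0.011, which gives no sign of pairing but cannot exclude it for single genes. With the replicate number as a block 8 probes were called and 0 of the 10 genes.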

Other observations

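The gain slope class of the scanner headers, with genotype in the model, had 1839 probes with an unadjusted limma p under 0.05 and 0 after adjustment. In that model Asns was higher on the steeper class by 0.31, the largest such value of the 10 genes, and Atf4 and Chac1 differed by -0.03 each.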
